A study of Mus musculus with 8 samples.

Results

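The genes described here are 10 genes of mitochondrial fatty acid oxidation that the study's main text does not name: Cpt2, Slc25a20, Acads, Hadh, Echs1, Decr1, Etfa, Etfb, Etfdh and Acot2. They were chosen by pathway role and found by their Ensembl identifiers among the 52636 genes of the count tables. All 10 passed the filter on low counts and were among the 15248 genes tested. Liver RNA from 8 male wild-type C57BL/6J mice was compared, 4 given AAV8-GFP (animals 303, 311, 314 and 315) and 4 given AAV8-AGXT (animals 308, 309, 316 and 319). AAV8 is an adeno-associated virus that reaches the liver, and both vectors used the TBG promoter, which is active in hepatocytes, to drive either GFP or human AGXT, the peroxisomal alanine-glyoxylate aminotransferase. Injection was at 7 weeks of age in both groups, and both received the high-fat, high-cholesterol, high-fructose diet of the metabolic dysfunction-associated steatohepatitis (MASH) model from 8 weeks of age for 24 weeks. All livers therefore carried a vector and came from mice on the diet, and no chow-fed or uninjected mice enter the comparison. The comparison asks what raising AGXT, which turns glyoxylate into glycine and so away from oxalate, does to the liver transcriptome on this diet.

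Long-chain fatty acids enter mitochondria as carnitine esters: CPT1 on the outer membrane makes the ester, the carrier SLC25A20 exchanges it across the inner membrane, and CPT2 returns the acyl group to coenzyme A. Each round of β-oxidation then uses an acyl-CoA dehydrogenase, an enoyl-CoA hydratase, a hydroxyacyl-CoA dehydrogenase and a thiolase. The dehydrogenases hand their electrons to the electron transfer flavoprotein (ETF), made of ETFA and ETFB, from which ETFDH passes them to ubiquinone in the respiratory chain. The liver relies on this route for energy and ketone bodies during fasting, and many of its genes are targets of the nuclear receptor PPARα.

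Counts on genes totalled 17095433 to 28780140 per library, and the common coefficient of variation between mice was 23.3%. The library of mouse 308 had the lowest share of tallied read pairs on genes, 56.3%, against 62.4% to 69.1% in the others. The defining hepatocyte gene Alb stood at 25931 to 43389 CPM in the 8 livers, where CPM are counts per library total after edgeR's TMM scaling (trimmed mean of M values). Mouse Agxt had 148 to 180 CPM with AAV8-GFP and 201 to 405 CPM with AAV8-AGXT (edgeR log2 fold change 0.90, adjusted p = 0.0489). The transgene is the human gene, so this does not check the labels, and how many of these read pairs came from the transgene was not tested.

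In AAV8-AGXT livers, Etfdh and Decr1 were higher than in AAV8-GFP livers, by 1.65-fold and 1.62-fold, at an adjusted p under 0.05 in edgeR's quasi-likelihood test. They are 2 of the 10 genes, where 2.45% of all tested genes were called higher. None of the 10 was called lower, against 1.90% of all tested genes, and none was lower at an unadjusted p under 0.05 either. All 10 fold changes were above 0 on the log2 scale, from 0.18 for Hadh to 0.72 for Etfdh, although those of Hadh, Etfb and Acot2 turned sign under other scalings. Their median was 0.36, where the median of all tested genes was 0.02. In 7 of the 10 the CPM of every AAV8-AGXT mouse exceeded that of every AAV8-GFP mouse, as in 8.93% of all tested genes. DESeq2's Wald test called 5 of the 10 higher, adding Cpt2, Slc25a20 and Echs1, where it called 6.58% of all genes it tested.

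The number of calls depended on single mice and on the scaling. Without mouse 311, 314 or 319 none of the 10 was called by edgeR, but these fits called 2, 11 and 12 genes higher in all, 0.0130%, 0.0701% and 0.0773% of those tested, so their count says nothing of the 10. Without mouse 303, 315, 308 or 316 Etfdh alone was called, where 0.742%, 1.97%, 0.544% and 1.43% of all tested genes were called higher. Without mouse 309 both Etfdh and Decr1 were called, against 2.4% of all tested genes. With library totals and no composition factor, the median of all tested genes moved to -0.22 on the log2 scale and the calls went from 374 higher and 290 lower to 144 higher and 857 lower. The median of the 10 genes was then 0.12, which was 0.34 above that of all tested genes. A change of scaling moves all genes by nearly the same amount, so this gap is bound to stay and checks nothing. On that scaling 3 of the 10 were higher without overlap, against 2.66% of all tested genes.

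**Figure D1:**
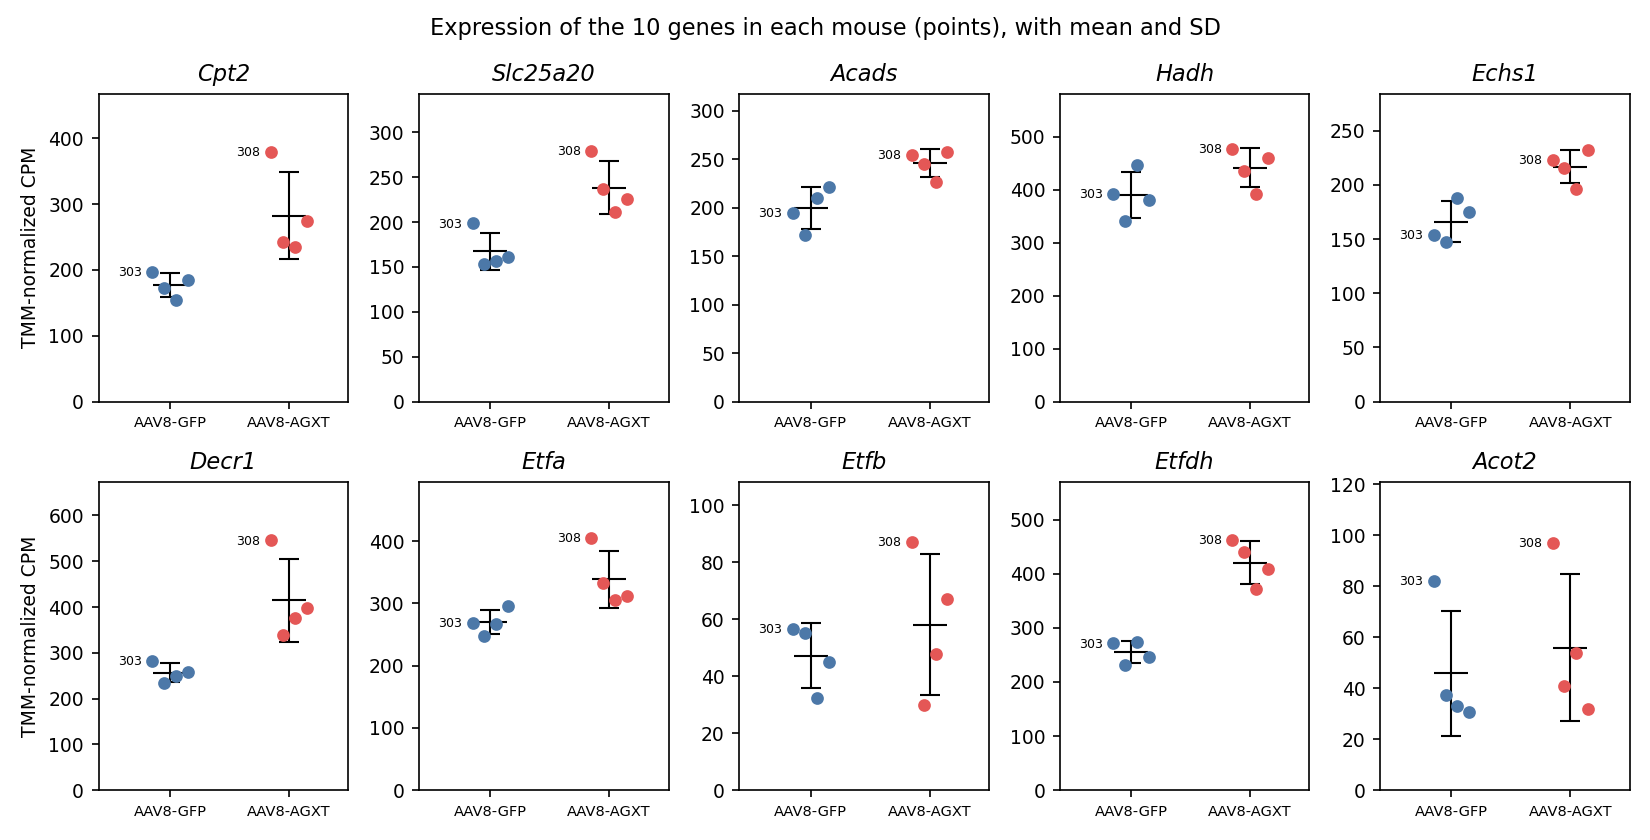
TMM-normalized CPM of the 10 genes in each mouse, with AAV8-GFP mice in blue and AAV8-AGXT mice in red, 4 points per group, and the mean and SD in black. The points of Hadh, Etfb and Acot2 overlap between groups and those of the other 7 genes do not. The labels mark mice 303 and 308.

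Promoter sequence is shown for the electron transfer genes, of which Etfdh was called and the ETF subunits were not, and for Cpt2 of the shuttle. Promoters were taken from RefSeq on GRCm38.p6, as the 250 bases before and 50 after each start, for 9 of the 10 genes, all but Decr1. Capitals mark the GC box GGGCGG and the core of the NRF1 motif, GCGCANGCGC, on either strand, 5′ to 3′ along the gene. The Etfdh window was chr3:79628718-79629017 on the minus strand, the Etfa window chr9:55512194-55512493 (minus), the Etfb window chr7:43443822-43444121 (plus) and the Cpt2 window chr4:107923540-107923839 (minus).
Etfdh: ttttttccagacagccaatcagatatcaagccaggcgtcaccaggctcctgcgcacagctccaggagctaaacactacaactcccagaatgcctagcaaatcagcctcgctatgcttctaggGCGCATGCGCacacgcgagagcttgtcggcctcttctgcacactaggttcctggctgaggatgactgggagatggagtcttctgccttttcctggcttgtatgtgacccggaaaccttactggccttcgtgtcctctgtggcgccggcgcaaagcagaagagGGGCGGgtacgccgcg
Etfa: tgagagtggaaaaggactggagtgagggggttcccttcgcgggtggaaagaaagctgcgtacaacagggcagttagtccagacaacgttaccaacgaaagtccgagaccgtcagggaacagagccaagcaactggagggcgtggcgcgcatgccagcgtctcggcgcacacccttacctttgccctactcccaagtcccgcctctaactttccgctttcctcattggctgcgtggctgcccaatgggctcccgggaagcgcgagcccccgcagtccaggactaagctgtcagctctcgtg
Etfb: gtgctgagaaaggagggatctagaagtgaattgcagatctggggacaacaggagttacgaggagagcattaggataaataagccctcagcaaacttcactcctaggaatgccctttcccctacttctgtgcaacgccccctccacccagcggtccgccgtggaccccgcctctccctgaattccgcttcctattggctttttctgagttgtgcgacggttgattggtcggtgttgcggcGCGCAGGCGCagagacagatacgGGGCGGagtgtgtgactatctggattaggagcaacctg
Cpt2: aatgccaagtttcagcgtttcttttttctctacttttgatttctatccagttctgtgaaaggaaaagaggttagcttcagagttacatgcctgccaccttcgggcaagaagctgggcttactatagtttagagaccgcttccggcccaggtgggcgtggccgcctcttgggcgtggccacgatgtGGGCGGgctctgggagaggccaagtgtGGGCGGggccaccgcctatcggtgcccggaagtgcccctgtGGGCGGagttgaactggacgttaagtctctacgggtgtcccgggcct

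The NRF1 core lay in the windows of Etfdh and Etfb, beginning 128 and 11 bases before the start, and was present in 4.60% of 32851 promoter windows of the same length. GC boxes were found in 7 of the 9 windows, those of Cpt2, Slc25a20, Acads, Hadh, Echs1, Etfb and Etfdh, and in 35.7% of all windows. The Cpt2, Slc25a20 and Echs1 windows held 3 copies each and that of Hadh held 4. The direct repeat read by PPARα and its partner RXR, searched as AGGNCANAGGNCA on both strands, was in none of the 9 windows and in 0.381% of all windows. The single repeat unit AGGTCA was in the Echs1 window alone of the 9, 83 bases before the start, and in 16.3% of all windows. The estrogen-related receptor element TCAAGGTCA, which contains AGGTCA, was in none of the 9 and in 0.423% of all windows. CCAAT was found in the windows of Hadh, Etfa, Etfb, Etfdh and Acot2, and in 37.4% of all windows. Some RefSeq starts, those of Cpt2 and Etfdh among them, differ from the GENCODE ones, so these windows are those of 1 annotated start each.

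Of the 2 shuttle genes, neither passed the edgeR threshold, although the groups did not overlap in either. Cpt2 (ENSMUSG00000028607, chromosome 4, 107903981 to 107923610, minus strand), the inner-membrane carnitine palmitoyltransferase, had 197, 173, 155 and 184 CPM in AAV8-GFP mice 303, 311, 314 and 315. In AAV8-AGXT mice 308, 309, 316 and 319 it had 379, 242, 235 and 274 CPM. All 4 AAV8-AGXT values lay above the highest AAV8-GFP value, with mouse 308 far above the other 3. The difference was 0.67 on the log2 scale (standard error 0.17, 95% interval 0.30 to 1.04), with an edgeR adjusted p of 0.0524. The adjusted p ranged from 0.00334 with DESeq2 to 0.18 with scaling to hepatocyte genes, and Cpt2 was called in 5 of 19 alternative settings.

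Slc25a20 (ENSMUSG00000032602, chromosome 9, 108662088 to 108684641, plus strand), the carnitine-acylcarnitine carrier, had 198, 153, 157 and 161 CPM with AAV8-GFP and 279, 236, 211 and 226 CPM with AAV8-AGXT. Mice 303 and 308 were the highest of their groups, and the AAV8-GFP range ended below the lowest AAV8-AGXT value. The log2 fold change was 0.51 (standard error 0.13, 95% interval 0.21 to 0.80, edgeR adjusted p = 0.0610), and 2 of 19 alternative settings called it. The ratio of Cpt2 to Cpt1a, the outer-membrane enzyme, was compared within each mouse, where library scaling cancels. It was 94.3% of the AAV8-GFP ratio in AAV8-AGXT mice, a log2 difference of -0.08 that was 0.02 without mouse 315 and -0.22 without mouse 314. The ratio of Slc25a20 to Cpt1a was 85.4% of the AAV8-GFP ratio, a log2 difference of -0.23. The log2 ratios overlapped between the groups in both, from -1.87 to -1.17 and from -1.79 to -1.17 for Cpt2 to Cpt1a. The study named Cpt1a on these samples and the 10 genes were taken because it did not name them, so these ratios are a description with no test.

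The other genes of carnitine handling, 9 in number, included 4 called higher and none called lower by edgeR. Over all tested genes 2.45% were called higher and 1.9% lower. The median log2 fold change of the 9 was 0.53. Slc22a5, the plasma membrane carnitine transporter, rose by 1.17 on the log2 scale, with 42.5 ± 4.97 CPM with AAV8-GFP and 95.9 ± 33.7 CPM with AAV8-AGXT (SD, n = 4 per group). Cpt1a (0.73), Aldh9a1 (0.57) and Bbox1 (0.54) were the others called, and the last 2 encode enzymes of carnitine synthesis. The study named Cpt1a on these samples, so its call is not independent evidence of a direction. Values for genes that were not called were 0.53 for Crat, the carnitine acetyltransferase, and 0.19 for the peroxisomal Crot. The muscle and brain forms of CPT1, Cpt1b and Cpt1c, were below 5 CPM, with log2 fold changes of -0.47 and -0.78.

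Acads (ENSMUSG00000029545, chromosome 5, 115110299 to 115119346, minus strand), the short-chain acyl-CoA dehydrogenase, had 195, 172, 210.3 and 221 CPM with AAV8-GFP and 255, 245, 226 and 258 CPM with AAV8-AGXT. The groups were apart by a narrow margin, between mouse 315 of AAV8-GFP and mouse 316 of AAV8-AGXT. The log2 fold change was 0.30 (standard error 0.12, 95% interval 0.04 to 0.56), and the edgeR adjusted p of 0.138 did not pass. The ratio of Acads to the medium-chain dehydrogenase Acadm in the same mouse separated the groups. Its log2 values were -1.15, -1.16, -1.08 and -1.04 in AAV8-GFP and -1.66, -1.30, -1.43 and -1.29 in AAV8-AGXT mice. The mean ratio was 80.5% of the AAV8-GFP one. Acadm, too, was named by the study on these samples, so the choice of genes bears on this direction, and no test is given.

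Echs1 (ENSMUSG00000025465, chromosome 7, 140105710 to 140116476, minus strand), the short-chain enoyl-CoA hydratase, had 154, 147, 188 and 175 CPM with AAV8-GFP and 223, 216, 196 and 233 CPM with AAV8-AGXT. The highest AAV8-GFP value, of mouse 314, was just under the lowest AAV8-AGXT value, of mouse 316. On the log2 scale the difference was 0.39 (standard error 0.12, 95% interval 0.12 to 0.65, edgeR adjusted p = 0.0822), and of 19 alternative settings DESeq2 alone called it. Echs1 overlaps Paox on the opposite strand, and the counting is not stated to have used strand.

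Hadh (ENSMUSG00000027984, chromosome 3, 131233419 to 131272101, minus strand), the short-chain hydroxyacyl-CoA dehydrogenase, had 392, 342, 447 and 381 CPM with AAV8-GFP and 478, 435, 393 and 459.6 CPM with AAV8-AGXT. The groups overlapped, with mouse 314 of AAV8-GFP above 2 of the AAV8-AGXT mice. The log2 fold change of 0.18 had a 95% interval from -0.10 to 0.46 (edgeR adjusted p = 0.403), so a rise of 1.37-fold lies inside it. Its sign turned under 3 scalings: -0.07 with no composition factor, -0.11 with scaling to 12 mitochondrial reference genes and -0.13 with scaling to hepatocyte genes. The ratio of Hadh to Hadha, the alpha subunit of the trifunctional protein that handles long chains, was -0.19, -0.19, 0.17 and -0.20 on the log2 scale in AAV8-GFP mice and -0.59, -0.46, -0.53 and -0.52 in AAV8-AGXT mice. Every AAV8-AGXT ratio was below every AAV8-GFP ratio, and the mean was 74.4% of the AAV8-GFP one. Hadha was named by the study on these samples, so this ratio is likewise a description with no test.

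Decr1 (ENSMUSG00000028223, chromosome 4, 15917240 to 15945507, minus strand), the dienoyl-CoA reductase needed for unsaturated fatty acids, had 283, 235, 249.7 and 259 CPM in AAV8-GFP mice. In AAV8-AGXT mice it had 545, 339, 377 and 397 CPM. All 4 AAV8-AGXT mice were above all AAV8-GFP mice, and mouse 308 again stood above its group. Decr1 rose by 0.69 on the log2 scale (standard error 0.16, 95% interval 0.34 to 1.05, edgeR adjusted p = 0.0449). With 1 mouse left out in turn, the call held without mouse 309 alone and the adjusted p reached 0.154 without mouse 311, while the log2 fold change was 0.52 to 0.75 over the 8 fits. It held in 8 of 19 alternative settings, where the adjusted p ranged from 0.000924 to 0.154.

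**Figure D2:**
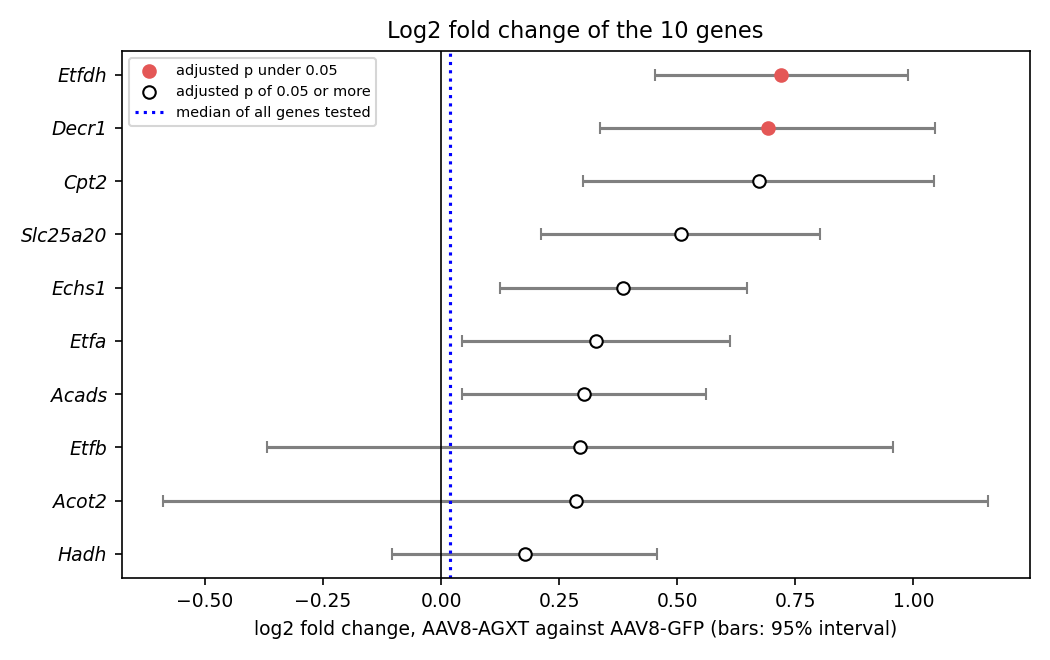
Log2 fold changes of the 10 genes, AAV8-AGXT against AAV8-GFP, from edgeR, with 95% intervals as bars; filled red points have an adjusted p under 0.05 and the dotted line is the median of all tested genes. Etfdh at 0.72 and Decr1 at 0.69 are the filled points, and the bars of Hadh, Etfb and Acot2 cross 0.

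Among 13 further genes of fatty acid metabolism, not all of them steps of oxidation, 4 were called higher and none lower by edgeR. Over all tested genes these shares were 2.45% and 1.90%. The median log2 fold change of the 13 was 0.48, and DESeq2 called 8 of them higher, against 6.58% of all genes it tested. The study's primer list holds 2 of the 13, Eci1 and Eci2. Those called were Hsd17b10 (1.08), a hydroxyacyl-CoA dehydrogenase for branched acyl groups, the medium-chain acyl-CoA synthetase Acsm3 (0.92), and the dehydrogenases Acad11 (0.77) and Acad10 (0.52). The isomerases that serve unsaturated chains beside Decr1 gave 0.50 for Eci1, 0.57 for Eci2 and 0.43 for Ech1, and none of them passed in edgeR. DESeq2 called Eci1 (adjusted p = 0.0345) and Eci2 (adjusted p = 0.00415) but not Ech1 (adjusted p = 0.0890). The 11 oxidation genes that the study names included 8 called higher, among them Cpt1a, Acadm (0.63), Acadvl (0.83), Hadha (0.61), Hadhb (0.65), Acsl1 (1.10) and Ppara (0.89), with a median of 0.65. The study chose these 11 on these samples, so their count is not independent evidence of a direction.

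Of the 3 electron transfer genes, Etfdh alone was called. Etfdh (ENSMUSG00000027809, chromosome 3, 79603788 to 79629500, minus strand), which encodes the ETF-ubiquinone oxidoreductase, had 271, 231, 273 and 246 CPM with AAV8-GFP and 463, 439, 372 and 408 CPM with AAV8-AGXT. The 2 ranges were far apart, and here mouse 308 did not stand away from its group. Etfdh rose by 0.72 on the log2 scale (standard error 0.12, 95% interval 0.45 to 0.99), with an edgeR adjusted p of 0.0278. It was called in 15 of 19 alternative settings, among them the scaling to mitochondrial reference genes (log2 fold change 0.43, adjusted p = 0.0350). The adjusted p was 0.0847 with scaling to hepatocyte genes, 0.116 without mouse 311, 0.0798 without mouse 314 and 0.0774 without mouse 319, and ranged from 6.13e-08 to 0.116 overall. Etfdh overlaps 4930579G24Rik on the opposite strand.

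Etfa (ENSMUSG00000032314, chromosome 9, 55454508 to 55512243, minus strand), the alpha subunit of ETF, had 269, 248, 267 and 296 CPM with AAV8-GFP and 405, 333, 305 and 312 CPM with AAV8-AGXT. The groups did not overlap, and mouse 308 was the highest. A log2 fold change of 0.33 (standard error 0.13, 95% interval 0.04 to 0.61) resulted and did not pass (edgeR adjusted p = 0.143). The ratio of Etfdh to Etfa within a mouse was 0.01, -0.10, 0.03 and -0.27 on the log2 scale in AAV8-GFP mice and 0.19, 0.40, 0.29 and 0.39 in AAV8-AGXT mice. All 4 AAV8-AGXT ratios exceeded all AAV8-GFP ratios, with a mean of 132% of the AAV8-GFP one. The two-sided exact permutation p was 0.0286, the smallest that 4 against 4 mice allow. Adjusted over the 6 ratios computed, this permutation p was 0.0571, which does not pass. That adjustment draws on the ratios to Acadm and Hadha, which had the same p and are not used as tests. The Etfdh to Etfa ratio, too, was chosen with earlier results of these data known, so neither permutation p is independent evidence of a direction.

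Etfb (ENSMUSG00000004610, chromosome 7, 43444083 to 43457800, plus strand), the beta subunit, had 56.8, 55.3, 32.2 and 44.9 CPM with AAV8-GFP and 87.3, 30.0, 47.8 and 67.2 CPM with AAV8-AGXT. The lowest and the highest of the 8 values were both in AAV8-AGXT mice, 309 and 308. Its log2 fold change of 0.29 had a 95% interval from -0.37 to 0.96 (edgeR adjusted p = 0.565), and leaving out 1 mouse moved it from 0.02 without mouse 308 to 0.48 without mouse 309. It turned to -0.02 with scaling to mitochondrial reference genes and -0.06 with scaling to hepatocyte genes. The ratio of Etfb to Etfa was 93.4% of the AAV8-GFP one, with overlapping groups (exact permutation p = 0.857, adjusted 0.857), and its log2 difference of -0.10 turned to 0.18 without mouse 309 and was -0.27 without mouse 314. Its counts are uncertain: 66.6% of the 67-base stretches of the Etfb transcript also belong to the same-strand gene Gm45233, which overlaps it and has 0 counts in all 8 tables.

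**Figure D3:**
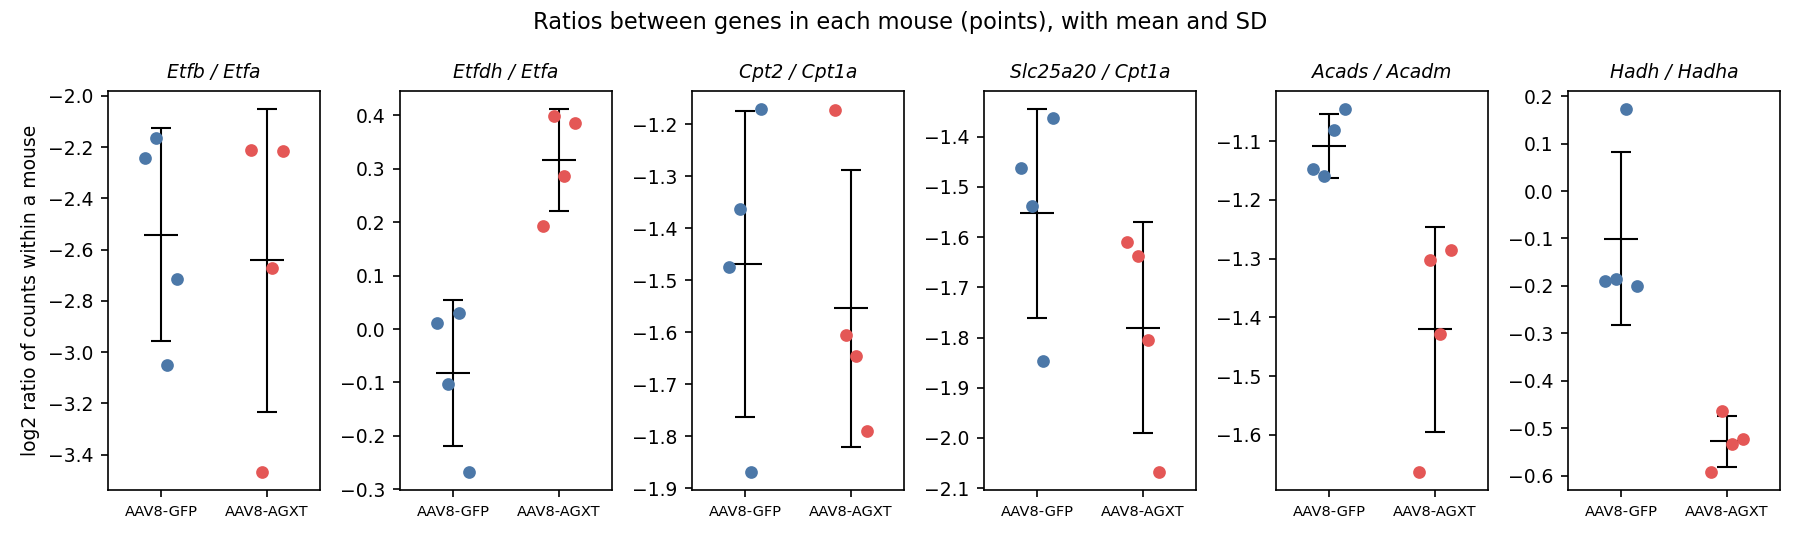
Log2 ratios of counts between pairs of genes within each mouse, with AAV8-GFP in blue and AAV8-AGXT in red, 4 points per group, and the mean and SD in black; each panel has its own axis. Etfdh / Etfa is higher in all 4 AAV8-AGXT mice, Acads / Acadm and Hadh / Hadha are lower in all 4, and the other 3 ratios overlap.

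ETF and ETFDH serve dehydrogenases of fatty acid, branched-chain amino acid, lysine and choline breakdown. Of 15 genes of ETF's dehydrogenases and of its assembly and flavin supply, 7 were called higher and none lower by edgeR, 12 did not overlap between the groups, and the median log2 fold change was 0.59. Outside fat oxidation these were Dmgdh (0.78) and Sardh (0.77) of the choline route, Gcdh of lysine breakdown (0.66), the branched-chain enzyme Acadsb (0.59) and the ETF-binding factor Etfrf1 (0.63). The other 2 called were Acadm and Acadvl, which the study names, as it does Acadl, and Acads, described above, is itself 1 of the 15. Acadm, Acadl, Acadvl and Acads are all among the 12 that did not overlap. They also enter the median of 0.59, so these values are not independent evidence of a direction. Over all tested genes, edgeR called 2.45% higher and 1.9% lower, and 8.93% were higher without overlap. Ivd gave 0.59 and Flad1, which makes the flavin cofactor, gave 0.41, and neither passed.

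Acot2 (ENSMUSG00000021226, chromosome 12, 83987861 to 83993873, plus strand), the mitochondrial thioesterase that releases free fatty acids from acyl-CoA, had 82.3, 37.2, 32.9 and 30.8 CPM with AAV8-GFP and 97.0, 40.9, 53.8 and 31.9 CPM with AAV8-AGXT. One mouse of each group, 303 and 308, stood far above the other 3. The log2 fold change was 0.29 with a wide 95% interval from -0.59 to 1.16 (edgeR adjusted p = 0.685), and leaving out 1 mouse moved it from -0.14 without mouse 308 to 0.73 without mouse 303. It was -0.03 and -0.04 with scaling to mitochondrial reference and hepatocyte genes. The transcript shares 23.1% of its 67-base stretches with paralogs, Acot1 first among them, so counts near these stretches are uncertain.

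Among 10 tested genes of the acyl-CoA thioesterase family other than Acot2, Acot12 was the 1 called by edgeR. Over all tested genes 2.45% were called higher and 1.90% lower. Acot12 had 96.7 ± 8.94 CPM with AAV8-GFP and 171 ± 16.1 CPM with AAV8-AGXT (SD, n = 4 per group). It rose by 0.82 on the log2 scale (edgeR adjusted p = 0.0198). The cytosolic Acot1 gave 1.81 (adjusted p = 0.0647), the peroxisomal Acot8 0.88 (adjusted p = 0.0502) and Acot9 -0.84 (adjusted p = 0.0678), in the same edgeR fit. Acot1 had 30.9 to 108 CPM with AAV8-GFP and 118 to 425 CPM with AAV8-AGXT, with mice 303 and 308 again the highest.

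Levels between genes were compared as CPM per kilobase of the principal transcript, in AAV8-GFP mice. Hadh (218) and Etfa (194) were the highest, followed by Etfdh and Acads (107 each), Echs1 (107), Slc25a20 (93.9), Decr1 (86.7), Cpt2 (74.7), Etfb (53.0) and Acot2 (20.9). Neighbours in this order overlapped between mice except Etfa with Etfdh, and Cpt2 with Etfb. Full transcript lengths were used, although 66.6% of the 67-base stretches of Etfb are shared with Gm45233 and 23.1% of those of Acot2 with paralogs. Read pairs there may not have been counted, so the low ranks of Etfb and Acot2, and the gap between Cpt2 and Etfb, are uncertain. In AAV8-AGXT mice the level of Etfdh was 177 on this scale and that of Decr1 140.1, against 247 for Hadh.

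Values of the 10 genes were also set against each other across mice within the groups. After group means were taken off the log2 CPM of the 8 mice, 40 of the 45 pairs of genes had a positive Pearson correlation, with a median of 0.50. Cpt2 with Decr1 was the highest at 0.92, followed by Acads with Echs1 (0.88) and Hadh with Echs1 (0.86), and Echs1 with Acot2 was the lowest at -0.38. Mouse 308 lay 0.33 above its group in mean log2 CPM of the 10 genes and mouse 303 lay 0.18 above its own, while mouse 309 lay 0.16 below. These points share libraries and their scaling, and the values are a description. The 5 other genes most like the mean of the 10 in this sense were Agpat3, Acsl5, Mrps2, Pigq and Kdm4a, with correlations from 0.96 to 0.98 over the 8 mice. They were picked as the highest over all other tested genes, so the height of these correlations is not a result.

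Other gene lists were set beside the 10 genes. Over all tested genes, edgeR called 2.45% higher, DESeq2 called 6.58% of those it tested, and 8.93% were higher without overlap. At an unadjusted p under 0.05 in edgeR, 2060 of 15248 genes were higher. The 10 targets of PPARα and of fasting had 4 called higher by edgeR, Cyp4a14 (2.24), Cyp4a10 (1.62), Ehhadh (1.43) and Creb3l3 (0.70), and a median log2 fold change of 0.54. Of the 6 not called by edgeR, 4 had log2 fold changes above 0 and 2 below, Fgf21 (-0.40) and Pdk4 (-0.21). Of the 10 targets, 6 were higher at an unadjusted p under 0.05, 6 were called higher by DESeq2 and 6 did not overlap between groups. The 12 mitochondrial reference genes outside fat oxidation, such as Atp5a1 (0.47), Hspd1 (0.49) and Sdha (0.39), had none called by edgeR, 7 higher at an unadjusted p under 0.05, 6 called higher by DESeq2, a median of 0.35 and 7 that did not overlap between groups. The 7 tested hepatocyte markers had none called by edgeR, 3 higher at an unadjusted p under 0.05, 2 called higher by DESeq2, 2 not overlapping, a median of 0.34, and a summed level of 53550 to 65290 CPM with AAV8-GFP and 63850 to 86190 CPM with AAV8-AGXT. These medians are close to the 0.36 of the 10 genes. After scaling to mitochondrial reference genes the median of the 10 was 0.07, and after scaling to hepatocyte genes 0.06. Such a scaling takes out the mean shift of its own list, so these 2 values restate that closeness and are no further result. On these scalings 1 and 0 of the 10 were called higher, against 1.01% and 0.498% of all tested genes.

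**Figure D4:**
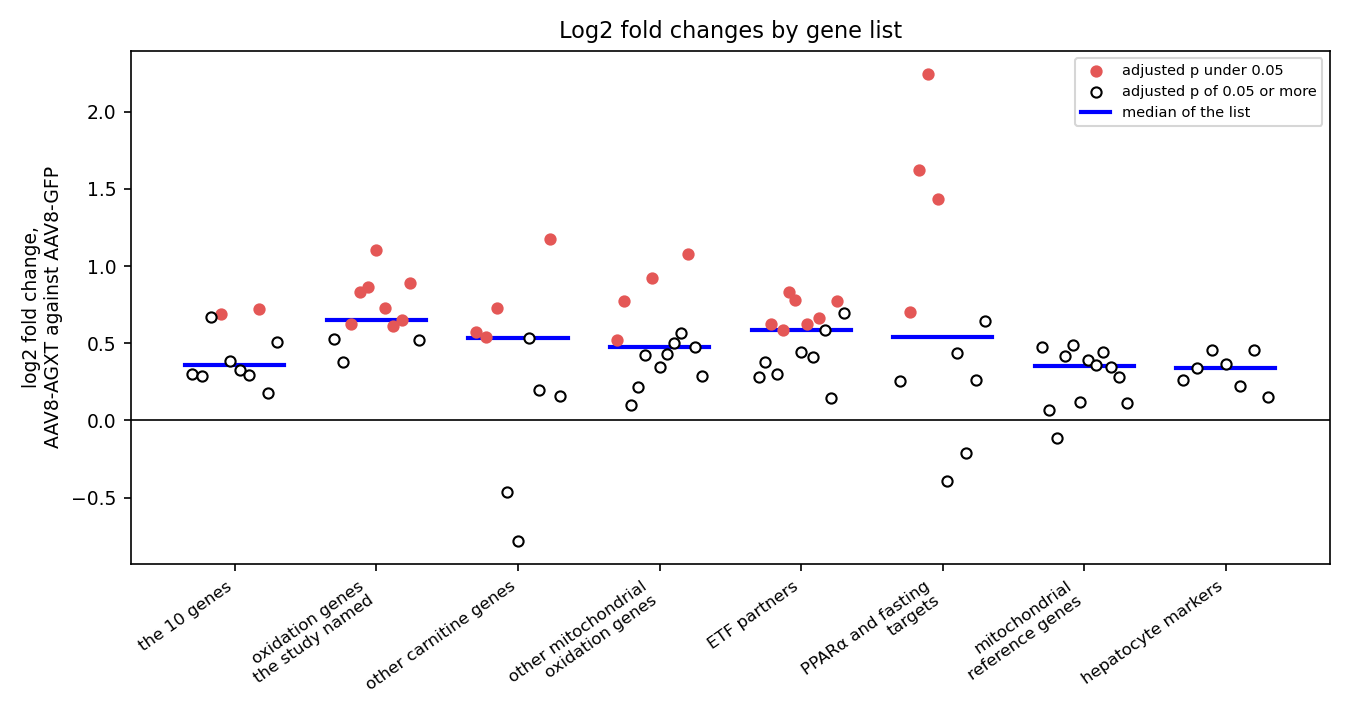
Log2 fold changes from edgeR by gene list, 1 point per tested gene, filled red where the adjusted p was under 0.05, with the list's median as a blue line. The median of the 10 genes (0.36) lies beside those of the mitochondrial reference genes (0.35) and hepatocyte markers (0.34), and below that of the oxidation genes the study named (0.65). Some genes are in 2 lists.

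Markers of other cells had lower medians in AAV8-AGXT livers in 5 of the lists, and no gene of these was called by edgeR. At an unadjusted p under 0.05 in edgeR, 4 of the 4 cholangiocyte markers, 3 stellate cell markers and 1 each of the macrophage, lymphocyte and neutrophil markers were lower, of which DESeq2 called 3, 1, 1, 1 and 1. Over all genes, 1928 of 15248 were lower at that unadjusted p, and DESeq2 called 1033 of 16225 lower. Other markers went the other way, with log2 fold changes above 0. These were 2 macrophage markers, Clec4f (0.45) and Adgre1 (0.13), 1 stellate cell marker, Lrat (0.11), and 1 lymphocyte marker, Ms4a1 (0.55). The median log2 fold change was -0.27 for 5 macrophage, -0.50 for 5 stellate cell, -1.24 for 4 cholangiocyte, -0.83 for 5 lymphocyte and -0.79 for 3 neutrophil markers. It was 0.24 for 4 endothelial markers. Summed levels ranged from 419 to 726 CPM with AAV8-GFP and 201 to 581 CPM with AAV8-AGXT for macrophage markers, and from 317 to 510 and 178 to 395 CPM for stellate cell markers. They were 23.5 to 62.6 and 13.7 to 33.2 CPM for cholangiocyte, 8.08 to 13.7 and 3.31 to 8.42 CPM for lymphocyte, 20.02 to 31.7 and 6.70 to 21.4 CPM for neutrophil, and 106 to 155 and 110 to 208 CPM for endothelial markers. Of the adipocyte markers, Adipoq and Plin1 were too scarce to be tested and Cfd was called higher (log2 fold change 1.93). In whole liver, a change in the share of hepatocytes and a change in RNA per hepatocyte cannot be told apart, and the part of these shifts in the values of the 10 genes was not tested.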

How the data were processed

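The authors sequenced liver RNA of 8 mice, 1 library per mouse, in read pairs after a stranded mRNA kit. Per the paper's methods and the labels, read pairs were trimmed with Trimmomatic 0.35, checked with FastQC 0.11.8, mapped with HISAT2 2.1.0.13 to GRCm38 and counted on Ensembl genes with HTSeq, with the strand option not stated. The deposited values are the authors' raw counts per gene, neither normalized nor filtered. Of all tallied read pairs, 30.9% to 43.7% were on no single gene and stayed out of library sizes. Gene names came from GENCODE M21, on the same build.

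Counts were fitted in R 4.3.3 with edgeR 4.0.16 (filterByExpr, TMM, quasi-likelihood test, treatment as the only term), with Benjamini-Hochberg adjustment over 15248 genes. Calls were made below an adjusted p of 0.05. CPM used TMM-scaled library sizes, and log2 CPM a prior count of 2. The script was tested on simulated data with known changes. Ratios of Etfb and Etfdh to Etfa were tested by two-sided exact permutation over mice. Those to Cpt1a, Acadm and Hadha, planned as tests too, are given as values, since the study named these 3 genes on the same samples. Motifs were searched on both strands of RefSeq promoters, and transcripts were compared by stretches of 67 bases. Alternatives were DESeq2 1.42.0, limma 3.58.1 (voom, with and without quality weights), robust estimation, other scalings and filters, and each mouse left out.

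The 10 genes, the lists and the tests were chosen with earlier results of these data known. All 10 genes are named; from each list, called genes, those a ratio uses and at most 4 more in order of p were eligible to be named, and some eligible genes are not reported here as single genes. The labels say no more of batches, and animal numbers differ between groups, so mice were not paired. The authors tested with DESeq2, whose results were not used.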

Additional observations from a re-analysis of the deposited data

Results flagged for a closer look

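In each group of 4 mice, the CPM of the 10 genes and the 6 ratios were checked for a mouse standing apart, by Dixon's 95% critical value, over 32 groups of values. There were 2 such mice, where chance gives about 1 in 20 groups. Acot2 in AAV8-GFP mouse 303 was 82.3 CPM, against 30.8 to 37.2 CPM in the other AAV8-GFP mice. The log2 ratio of Hadh to Hadha in AAV8-GFP mouse 314 was 0.17, against -0.20 to -0.19 in the others of its group, and the difference between groups was -0.34 without that mouse and -0.43 with it.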

How the results depend on the processing

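Of the 10 genes, 2 were called higher with edgeR, against 2.45% of all tested genes, the share given in brackets for other settings. DESeq2 called 5 (6.58%) and limma voomWithQualityWeights 4 (5.27%). The number was 3 with limma-voom (2.65%), robust estimation (2.58%) or no filter (1.46%). It was 1 with upper-quartile scaling (1.67%), no composition factor (0.944%) or scaling to mitochondrial reference genes (1.01%). Scaling to hepatocyte genes gave 0 (0.498%), and leaving out 1 mouse gave 0 to 2 (0.0130% to 2.4%). Over all genes, calls without 1 mouse ran from 2 to 379 higher and 0 to 325 lower, with 2 and 0 without mouse 311, 11 and 4 without 314, and 12 and 2 without 319. DESeq2 called 1068 higher and 1033 lower and voomWithQualityWeights 804 and 606. Upper-quartile scaling gave 254 and 298, scaling to mitochondrial reference genes 154 and 1843, and scaling to hepatocyte genes 76 and 601. The genes not overlapping, 7 with TMM, were 3 with no composition factor and 2 and 1 with the mitochondrial and hepatocyte scalings. Of all tested genes, 8.93% were higher without overlap with TMM, and 2.66%, 2.07% and 1.5% under these scalings. The median log2 fold change of 0.36 became 0.116, 0.0732 and 0.0554. The median of all tested genes moved to -0.22, -0.27 and -0.28 under these scalings. The 10 genes lay 0.34 above it in each, which had to be so because a scaling moves all genes by nearly the same amount. Signs turned for Hadh (-0.0663, -0.108 and -0.127 under the 3), Etfb (-0.0239 and -0.0617 under the last 2) and Acot2 (-0.0344 and -0.0443, and -0.136 without mouse 308, where leaving out 1 mouse gave -0.136 to 0.7315). The number called lower was 0 in all settings run, with 0 at an unadjusted p under 0.05. Etfdh was called in 5 and Decr1 in 1 of the 8 fits without 1 mouse. Of 190 gene results under these settings, 159 kept their direction and side of the threshold, 8 passed it newly, 15 lost it and 8 turned sign. The cause was not tested. Among the ratios, leaving out 1 mouse turned the sign of Etfb to Etfa (-0.27 to 0.18 on the log2 scale) and of Cpt2 to Cpt1a (-0.22 to 0.02), and no test was run without 1 mouse. No paired analysis was possible because the groups share no animal numbers. The intervals of Hadh, Etfb and Acot2 leave room for changes in either direction.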
